A study of Chlamydomonas reinhardtii with 8 samples.

Results

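*FMG1-B* encodes the major glycoprotein of the flagellar membrane of the green alga *Chlamydomonas reinhardtii*. On the whole genome microarray it is represented by transcript model 158519, which is 1 of 14557 transcript models and has 3 of the 43705 different transcript probes. The model was chosen by its log2 ratio in these data, since probe 3 was among the 4 of 16733 tested probes that were called lower after sulfur starvation over all 6 arrays of the replication experiment (0.0239% of the tested probes), and had the lowest mean of those 4. This call was lost with normexp background correction (a model-based correction that keeps weak signals above 0), which called 0 probes lower over the 6 arrays, and without array 4, 5 or 6. The log2 ratios of all 3 probes in this comparison are therefore given as a description, with no test.

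The flagellar membrane glycoprotein covers the surface of both flagella and contacts the substrate. It is moved along the flagellum by motors of the intraflagellar transport machinery, which lets the cell adhere to and glide over a surface. A related, minor flagellar membrane glycoprotein is encoded by *FMG1-A*. Sulfur starvation of *C. reinhardtii* is known to stop growth and to induce arylsulfatases, sulfate transporters and extracellular proteins poor in sulfur.

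Each array compared 2 labeled RNA samples. In the replication experiment (6 arrays, arrays 1 to 6) Cy5 held RNA of the wild type cc3491 kept in TAP medium without sulfur, and Cy3 held T0 RNA of cc3491, harvested at 0 h from early stationary cultures in full medium. The cells were washed before they were moved to the medium without sulfur. By the labels, no array held RNA of cells kept in full medium for the same time. Loss of sulfur, washing and time in culture therefore cannot be told apart in these ratios. In the dye test (2 arrays) both channels are labeled as RNA of the wild type cc125 after 24 h of sulfur starvation. The titles give 24 h for the starved RNA of all 6 replication arrays, while the sample characteristics give 24, 48, 72, 96, 24 and 48 h for arrays 1 to 6, so the starvation time of each array is not settled.

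The signal differed between arrays. On arrays 1 and 2 only 4.99% and 5.64% of the 43705 transcript probes were well above background in at least 1 channel, against 38.5% to 56% on arrays 3 to 6 and 92.7% and 98.5% on the dye-test arrays. Arrays 1 to 4 lie on 1 slide, arrays 5 and 6 on another and the dye test on one of its own, so that strain and slide cannot be told apart. The known sulfur starvation genes (*ARS1*, *ARS2*, *ECP88*, *ECP76*, *SLT1* and *LHCBM9*, 18 probes) were used to check the labels. On arrays 1 and 2, 0 of these 18 probes were well above background, so that the labels could not be checked there. On arrays 3 to 6, 6, 8, 4 and 2 were well above background, fewer on arrays 3 and 6 than the probes counted next. At least 2-fold higher signal in the starved channel was found for 0 of 18 probes on arrays 1 and 2 and for 8, 8, 4 and 4 on arrays 3 to 6. It was found for 0 on the first dye-test array and for 17 on the second, where their median log2 ratio was 3.94. The second dye-test array, labeled as starved RNA in both channels, thus goes against its label, and its values are given apart as those of the array with this label.

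*FMG1-B* gave strong signals in both channels of arrays 3 to 6. For probe 1 the processed intensity, in scanner units after background subtraction and dye normalization, was 23519, 27201, 12369 and 12737 in the starved cells on arrays 3, 4, 5 and 6, against 157234, 168709, 70823 and 70578 in the T0 cells. Probe 2 had 7208, 8011, 3340 and 3317 in the starved cells, against 59465, 64571, 23310 and 24117 in the T0 cells. Probe 3 had 11041, 10477, 5556 and 4627 in the starved cells, against 86955, 79286, 38269 and 33078 in the T0 cells. With each of the 3 probes the starved value was below the T0 value on every one of these 4 arrays, in the contrast that chose the model. The T0 spots of probe 1 were 1164 to 1865 times as bright as their local background before any correction, and the starved spots of probe 1 were 26.2 to 229 times as bright. None of the 48 channel values of *FMG1-B* was saturated.

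On arrays 1 and 2 the *FMG1-B* signal was close to background. Probe 1 was well above background in both channels, with 966.5 and 582.7 in the starved cells and 1390 and 720.8 in the T0 cells. Probe 2 was well above background in neither channel, at 105.1 and 82.3 in the starved cells and 298.9 and 176.7 in the T0 cells, and its measurement error was about as large as the starved values (104.8 and 82.1). Probe 3 was likewise well above background in neither channel, at 103.3 and 81.2 in the starved cells and 422.3 and 404.5 in the T0 cells. The starved and the T0 values of probes 2 and 3 on these 2 arrays are therefore bounds rather than signals. Their ratios bound the difference in neither direction.

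The log2 ratio of starved over T0 RNA after lowess normalization was alike on arrays 3 to 6. Probe 1 had -2.66, -2.53, -2.55 and -2.50, with a mean of -2.56 ± 0.07 (SD, n = 4 arrays), which is a 5.89-fold lower signal in the starved cells. Probe 2 had -2.99, -2.95, -2.80 and -2.86, with a mean of -2.90 ± 0.09 or 7.45-fold lower. Probe 3 had -2.91, -2.85, -2.80 and -2.84, with a mean of -2.85 ± 0.05 or 7.20-fold lower. Averaged over the 3 probes, the *FMG1-B* transcript was 6.81-fold lower in the starved cells, with array values between -2.85 and -2.72. The spread over arrays was smaller than the measurement error that the software gave for a single spot of these probes (0.31 to 0.35 on the log2 scale). In RNA of a whole culture, fewer cells with the transcript and less of it per cell cannot be told apart.

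The 2 slides gave similar values. By the sample characteristics the starved RNA also differed in time, with 72 and 96 h on arrays 3 and 4. Arrays 5 and 6 held 24 and 48 h, so that slide and this time cannot be told apart. Probe 1 averaged -2.59 on arrays 3 and 4 and -2.52 on arrays 5 and 6, probe 2 averaged -2.97 and -2.83, and probe 3 averaged -2.88 and -2.82. The slides differed before dye normalization, where the median log2 ratio of background-subtracted signals over all probes well above background was 0.40 and 0.35 on arrays 3 and 4 but -2.14 and -2.25 on arrays 5 and 6. Relative to these medians, with no dye normalization by the software or by lowess, *FMG1-B* probe 1 lay at -2.54, -2.28, -2.79 and -2.63 on arrays 3 to 6, probe 2 at -2.64, -2.53, -2.88 and -2.83, and probe 3 at -2.55, -2.38, -2.68 and -2.65. *FMG1-B* was among the brighter probes. Of the probes well above background in both channels of arrays 3 to 6, 4.18% to 7.54% were brighter than probe 1, 9.70% to 18.1% than probe 2 and 8.07% to 13.9% than probe 3. As the starved RNA was in Cy5 on all 6 arrays, a dye effect specific to a probe adds to these ratios.

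Over all 6 arrays the 3 probes were less alike. Arrays 1 and 2 gave -0.49 and -0.24 for probe 1, -1.63 and -1.24 for probe 2 and -2.08 and -2.30 for probe 3. Probe 1, the only *FMG1-B* probe well above background there, thus had the smallest difference between the starved and the T0 cells. The 6-array means were -1.83 ± 1.14 for probe 1, -2.41 ± 0.77 for probe 2 and -2.63 ± 0.35 for probe 3 (SD, n = 6 arrays). Probe 1 was the least low over 6 arrays and on arrays 3 to 6, while probes 2 and 3 changed places. Of the 3 probes, 1 was called with Holm adjustment over the 6 arrays, and all 3 were called lower with Benjamini-Hochberg adjustment on arrays 3 to 6, where 4.52% of all tested probes were called lower. Both counts use the contrast that chose the model and are given only as a description. In the order of the tested probes from the lowest mean, the 3 *FMG1-B* probes took places 37, 14 and 8 of 16733 over the 6 arrays and places 38, 24 and 25 on arrays 3 to 6.

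**Figure D1:**
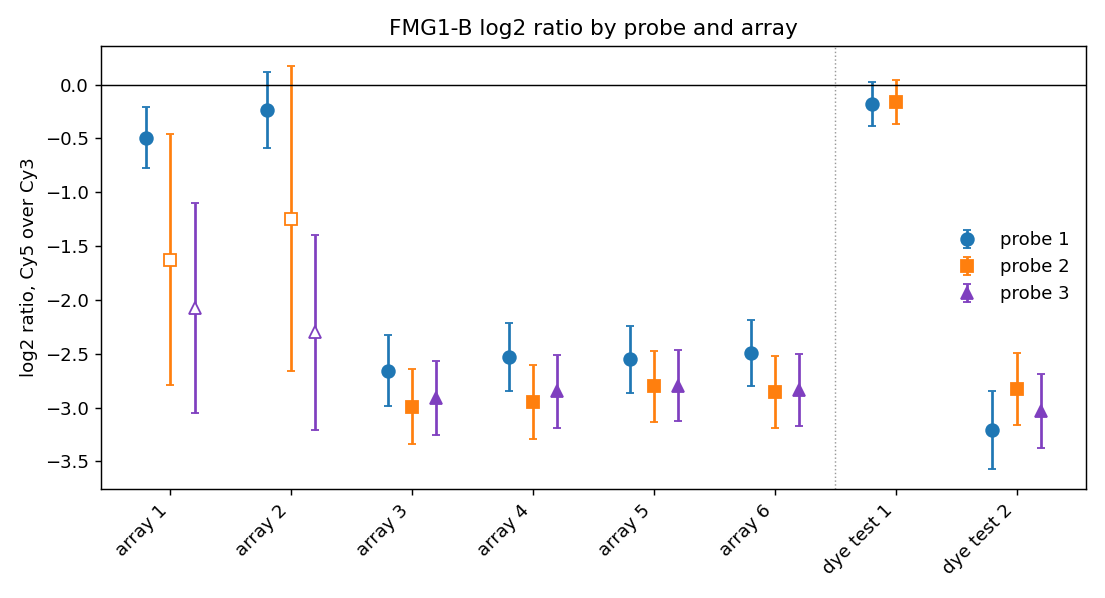
Log2 ratio of Cy5 over Cy3 for each *FMG1-B* probe and array, after lowess on arrays 1 to 6 and from the processed intensities in the dye test, with the spot's measurement error. The probes lie between -2.99 and -2.50 on arrays 3 to 6 and apart from each other on arrays 1 and 2, where open points were not well above background, and the spot of probe 3 on the first dye-test array is left out.

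The values of arrays 1 and 2 depended on how the background was treated. With normexp background correction, which adds an offset of 50 to both channels, the log2 ratio on arrays 1 and 2 was -0.15 and -0.02 for probe 1, -0.19 and -0.02 for probe 2 and -0.23 and -0.07 for probe 3. On arrays 3 to 6 the same correction gave means of -2.69 ± 0.05, -2.80 ± 0.10 and -2.68 ± 0.10 for probes 1, 2 and 3 (SD, n = 4 arrays). The difference between the probes on arrays 1 and 2, seen with the processed intensities of the software, was thus nearly absent with this correction. Before any correction the starved spots of *FMG1-B* on arrays 1 and 2 were 1.01 to 1.55 times as bright as their local background and the T0 spots 1.67 to 2.40 times.

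The 3 probes of *FMG1-B* were about as close to each other as those of other models. On arrays 3 to 6 the means of the 3 probes spanned 0.34, the same as the median span of 0.34 over the 2769 models with 3 tested probes (50.3% of the models had a smaller span). Among the 215 of these models that differed at least 2-fold, the median span was 0.44. On each of arrays 3 to 6 probe 1 was the least low and probe 2 the lowest, and the difference of probe 2 from probe 1 was -0.34 ± 0.07 (SD, n = 4 arrays, -0.41 to -0.25). Probe 3 differed from probe 1 by -0.29 ± 0.05 and from probe 2 by 0.05 ± 0.05. The differences from probe 1 depended on the processing. With normexp background correction probe 2 differed from probe 1 by -0.11 ± 0.09 and probe 3 from probe 1 by 0.02 ± 0.08, and before dye normalization by -0.16 ± 0.08 and -0.004 ± 0.09. Probe 2 was thus lower than probe 1 under each of these settings, and the difference of probe 3 from probe 1 was within its spread without the processed intensities. Over all 6 arrays, with the dim arrays on which probes 2 and 3 were not well above background, the span was 0.80 and 88% of 2767 models had a smaller one. With a mean over its 3 probes of -2.77 on arrays 3 to 6, *FMG1-B* took the fifth place from the lowest among the 2769 models.

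In the dye test the first array gave nearly equal signals for *FMG1-B*. Probe 1 had 4422 in Cy5 and 5014 in Cy3, and probe 2 had 2015 in Cy5 and 2252 in Cy3. Their log2 ratios were -0.18 and -0.16, within the measurement error of the spots (0.20). The spot of probe 3 on this array was marked as an outlier and was left out. Of 38991 probes, 0.182% were at least 2-fold lower in Cy5 on this array, and none of the *FMG1-B* probes measured was among them.

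The second dye-test array, with the same label for both channels, gave unequal signals. Probe 1 had 976.1 in Cy5 and 9002 in Cy3, probe 2 had 573.9 in Cy5 and 4076 in Cy3, and probe 3 had 629.0 in Cy5 and 5143 in Cy3. The log2 ratios were -3.21, -2.83 and -3.03, or 9.22-, 7.10- and 8.18-fold lower in Cy5, with measurement errors of 0.36, 0.33 and 0.35 on the log2 scale. The means of the 3 probes on arrays 3 to 6 were -2.56, -2.90 and -2.85. With normexp background correction the second dye-test array gave smaller differences, at -2.26, -1.64 and -1.87, against -2.69, -2.80 and -2.68 on arrays 3 to 6. On this array probe 1 was the lowest and probe 2 the least low with either correction. With the processed intensities, where the span was 0.38, this was the reverse of the order on arrays 3 to 6. With normexp it was not the reverse, as probe 2 was the lowest and probe 3 the least low on arrays 3 to 6. On the second dye-test array 11.9% of 43050 probes were at least 2-fold lower in Cy5, and the 6 starvation genes were higher in Cy5. Of the 75 other probes with a mean of -2 or lower on arrays 3 to 6, 30 (40%) were at least 2-fold lower there and 0 of 72 were so on the first dye-test array.

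To compare the level of *FMG1-B* between RNA samples, the channels of arrays 3 to 6 and the dye test were brought to a common scale (lowess, then quantile normalization of the mean intensity). Each probe was compared only with itself. Probe 1 had a log2 level of 14.48 ± 0.07 in starved cc3491 cells and 17.04 ± 0.03 in cc3491 T0 cells (SD, n = 4 arrays). In cc125 its level was 11.57 in Cy5 and 11.74 in Cy3 of the first dye-test array, and 7.33 in Cy5 and 10.59 in Cy3 of the second. From the highest to the lowest level the order of probe 1 was T0 cc3491, starved cc3491, the 2 channels of the first dye-test array, and Cy3 and then Cy5 of the second.

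Probe 2 had 12.74 ± 0.05 in starved and 15.64 ± 0.11 in T0 cc3491 cells, and 10.04, 10.19, 6.35 and 9.21 in Cy5 and Cy3 of the first and Cy5 and Cy3 of the second dye-test array. The order was the same as for probe 1. Probe 3 had 13.28 ± 0.09 in starved and 16.13 ± 0.09 in T0 cc3491 cells, with 6.52 in Cy5 and 9.59 in Cy3 of the second dye-test array. The 2 channels of the first dye-test array did not differ beyond their measurement error for probes 1 and 2. Its levels for these probes in Cy3 were 1.15 and 0.98 above those in Cy3 of the second array, or 0.58 and 0.45 with all 8 arrays on the common scale, with 1 array each and no measure of their spread. Before this scaling the processed Cy3 intensity was lower on the first array (5014 and 2252) than on the second (9002 and 4076), so that this order depends on the scaling. On the common scale starved cc3491 cells had a higher *FMG1-B* level than any cc125 sample with each probe measured. Against Cy5 of the first dye-test array the differences were 2.92 for probe 1 and 2.70 for probe 2. With all 8 arrays on the common scale these differences were 2.48 and 2.04. Before scaling, the starved intensity of probe 2 on arrays 5 and 6 (3340 and 3317) was below Cy3 of the second dye-test array (4076). The same held for probe 3 on array 6 (4627 against 5143), but for probe 1 on none of arrays 3 to 6. For probes 2 and 3 this order therefore also depends on the scaling. Strain and slide differ together here and cannot be told apart.

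**Figure D2:**
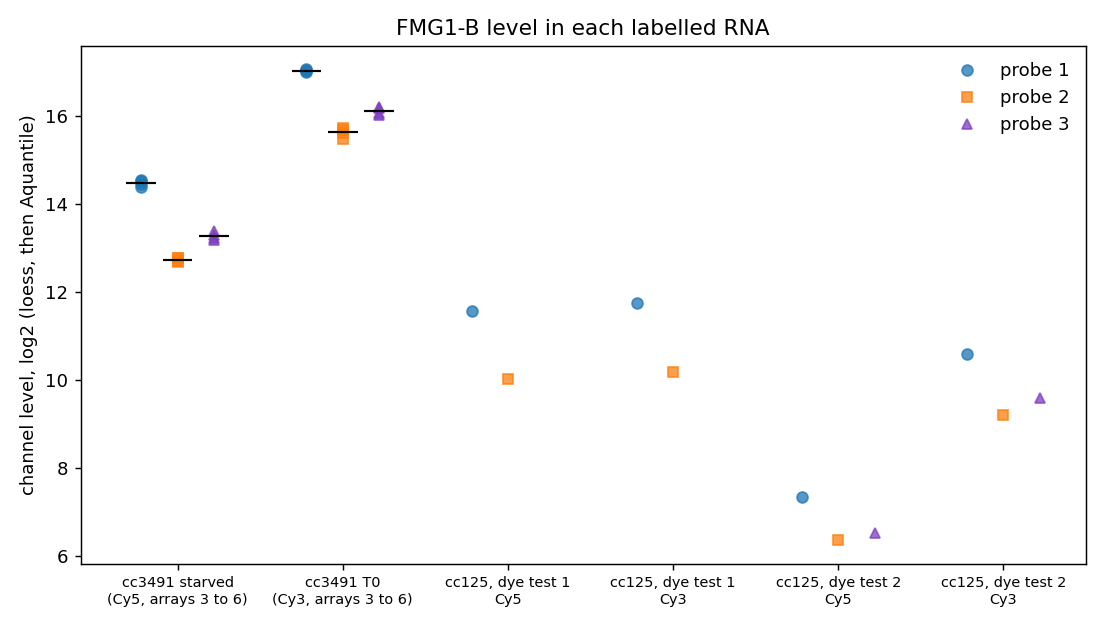
Log2 level of each *FMG1-B* probe in each labeled RNA sample after lowess and quantile normalization of the mean intensity, 1 point per array and a line at the mean of arrays 3 to 6. Starved cc3491 cells lie below T0 cc3491 cells and above both channels of both cc125 dye-test arrays.

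The other flagellar genes were taken from the models that the study's starvation tables name as flagellar, 39 models beside *FMG1-B* with 117 probes, of which 75 were tested. Because 20 of the models come from the table of genes responding to sulfur starvation, their direction is not independent evidence. On arrays 3 to 6, limma with Benjamini-Hochberg adjustment called 14 of the 75 flagellar probes lower (18.7%) and 4 higher (5.33%), against 4.52% lower and 4.64% higher of all 16733 tested probes. The median log2 ratio of the 75 probes was -0.60, against -0.01 over all tested probes and -2.56 to -2.90 for the *FMG1-B* probes. With at least 2 probes called, 5 of the 31 flagellar models with at least 2 tested probes were lower and 2 higher. Of all 5511 models with at least 2 tested probes, 3.59% were lower and 3.92% higher. Of the 5 lower flagellar models, 4 were named under sulfur starvation and 1 under nitrogen starvation. Over all 6 arrays limma with Holm adjustment called 0 of the 75 probes, although 47 had an unadjusted p under 0.05, as did 34.3% of all tested probes. There 0.0239% of all tested probes were called lower and 0.012% higher.

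The models named *FMG1-A*, for the minor flagellar membrane glycoprotein, did not move in one direction. Model 80367 rose, with log2 ratios averaging 2.61 ± 0.15 over its 2 tested probes (SD, n = 4 arrays, adjusted p of up to 0.000142, limma with Benjamini-Hochberg adjustment). Its probe 1 had 9603, 11269, 3706 and 3791 in the starved cells of arrays 3 to 6, against 1483, 1710, 715.1 and 667.8 in the T0 cells. Model 16132 fell, with -1.65 ± 0.17 over its 2 tested probes and adjusted p of up to 0.00269. Its probe 1 had 217.3, 225.7, 97.2 and 112.7 in the starved cells of arrays 3 to 6, against 771.0, 737.6, 356.0 and 348.5 in the T0 cells. With normexp background correction its 2 tested probes had means of -0.80 and -0.73, under 2-fold, while those of model 80367 had 2.15 and 2.26. *FMG1-B* was lower than either *FMG1-A* model in these cells relative to T0, at -2.77 ± 0.06. On the second dye-test array model 80367 lay at -3.65 and model 16132 at -1.20, both lower in Cy5 as was *FMG1-B*, so that model 80367 took opposite directions on arrays 3 to 6 and on that array.

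Among the other flagellar models with at least 2 called probes, 4 fell, each with a smaller difference than that of *FMG1-B*, and 1 rose. *FAP151* had -1.26 ± 0.06, *FAP1* -1.26 ± 0.06, *FAP147* -1.11 ± 0.15 and *FAP86* -1.08 ± 0.08 (SD, n = 4 arrays, limma with Benjamini-Hochberg adjusted p of up to 0.00229). These FAP genes encode flagellar associated proteins, named from their presence in isolated flagella. *FA1*, which is needed for the shedding of flagella, had 2.23 ± 0.37 with an adjusted p of up to 0.00504. With normexp background correction 1 probe each of *FAP1* and *FAP86* was still called, none of *FAP151*, *FAP147*, *FA1* or *FMG1-A* model 16132 was, and both tested probes of *FMG1-A* model 80367 were. All 3 probes of *FMG1-B* were within the calls under that correction on arrays 3 to 6. With the first dye-test array subtracted (11.7% of all tested probes called), no probe of *FAP1* or *FAP147* was called. Of these, *FAP1* probe 1 and *FAP147* probe 2 had no value on that array. At least 2 probes each of *FAP151*, *FAP86*, *FA1* and both *FMG1-A* models were called. On the second dye-test array the FAP models and *FA1* ranged from -0.87 for *FAP1* to 1.39 for *FAP86*, against -3.02 for *FMG1-B*. The median of the 75 flagellar probes there was -0.85, against 0.08 over all tested probes.

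**Figure D3:**
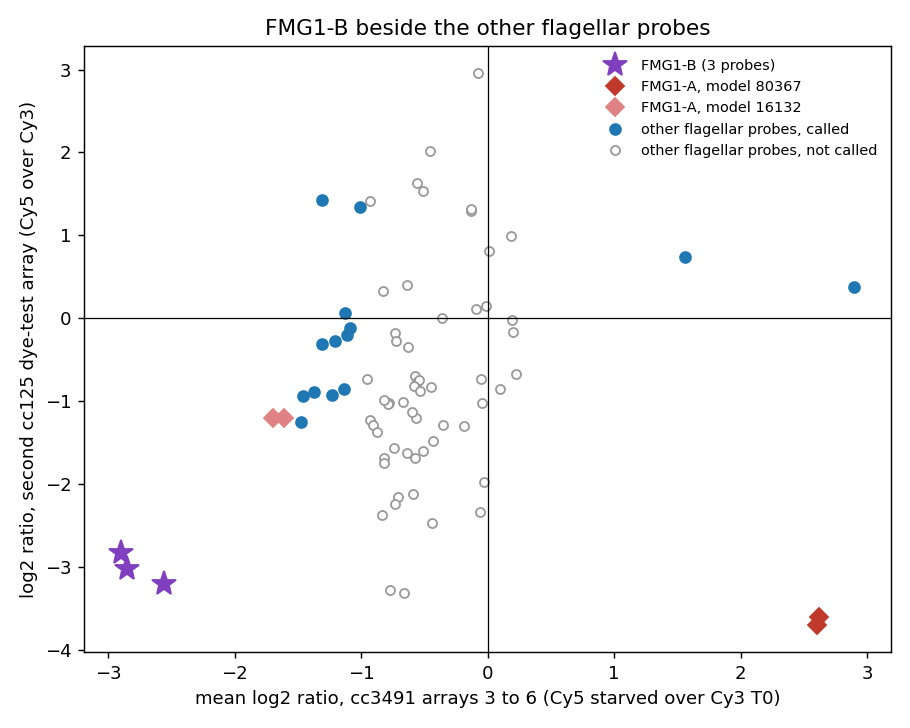
Mean log2 ratio of starved over T0 cells on arrays 3 to 6 (horizontal) and log2 ratio on the second dye-test array (vertical) for the *FMG1-B* probes and the tested probes of 39 other flagellar models, with filled points for called probes. *FMG1-B* lies at the lower left, with means of -2.90 to -2.56, and the *FMG1-A* model 80367 at the lower right.

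The models with the pattern most like that of *FMG1-B* were sought among 2638 models whose 3 probes stood well above background in Cy5, Cy3 or both on each of arrays 3 to 6 and both dye-test arrays, by the root mean square difference of the log2 ratio over these 6 arrays. The closest was *NAB1* (model 126810), which encodes an RNA-binding protein that represses the translation of light-harvesting antenna proteins, with a difference of 0.15. *NAB1* had -3.01, -2.97, -2.67 and -2.64 on arrays 3 to 6, against -2.85, -2.78, -2.72 and -2.73 for *FMG1-B*. On the first and second dye-test arrays *NAB1* had -0.31 and -2.81, against -0.17 and -3.02 for *FMG1-B*. In the starved channel *NAB1* probe 2 was well above background on array 4 alone of arrays 3 to 6 and probe 3 on arrays 3 and 4 alone, so that its mean over probes rests in part on spots at background, which was not so for *FMG1-B*. The intensity of *NAB1* probe 1 on arrays 3 to 6 was 87.7 to 168.6 in the starved cells, against 571.5 to 1178 in the T0 cells. The *NAB1* probes 1, 2 and 3 lay far apart, at -2.76, -4.79 and -1.50 on array 3. On array 5 they had -2.68, -4.46 and -0.86, and they were closest on array 6, at -2.64, -3.05 and -2.23.

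The next was model 183357, which the study's tables name as a phosphate symporter, with a difference of 0.52 from *FMG1-B*. It had -2.35 to -2.02 on arrays 3 to 6 and -3.69 on the second dye-test array. The models 152047, 164497 and 112237, with differences of 0.87, 0.91 and 0.98, carry no gene name here and were less low than *FMG1-B* on each of arrays 3 to 6 and on the second dye-test array. As a mean over probes, *FMG1-B* was near 0 on the first dye-test array and below -2.7 on the other 5 arrays. Of these candidates *NAB1* alone matched this mean within 0.2 on average, while its single probes lay apart from each other.

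**Figure D4:**
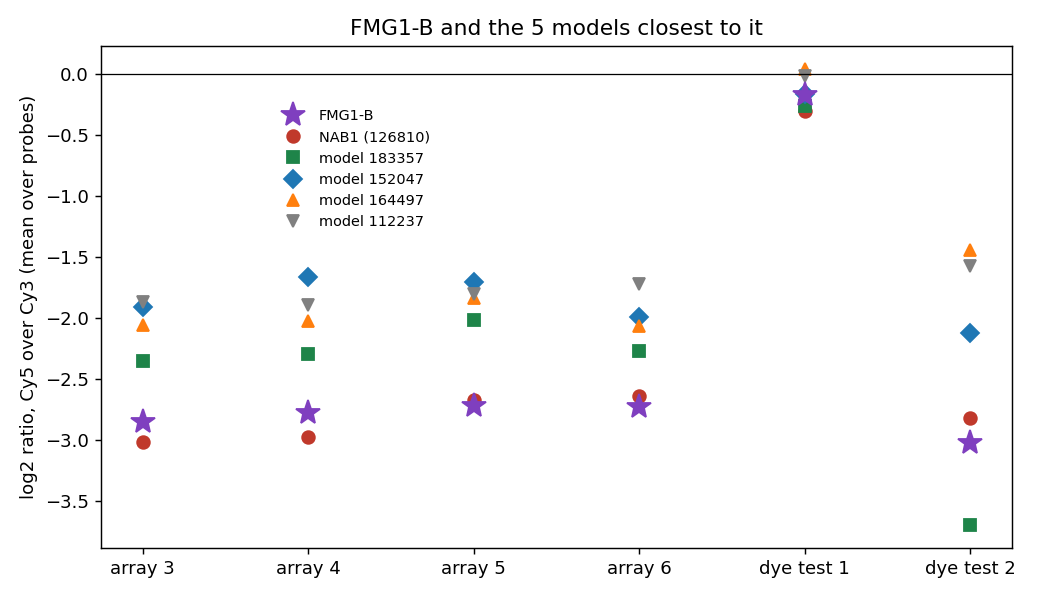
Log2 ratio of Cy5 over Cy3, as the mean over probes, of *FMG1-B* and the 5 models closest to it on arrays 3 to 6 and in the dye test. *NAB1* lies within 0.2 of *FMG1-B* on arrays 3 to 6 and on the first dye-test array, and the other 4 models are less low on arrays 3 to 6.

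Model 158519 is kept as an older name of the locus CHLRE_09g392867v5 in a later annotation by NCBI (assembly v5.5). That assembly differs from the JGI 3.1 models of the array, so its coordinates were not used. Among the loci up to 4 places away in this annotation, 4 had tested probes. The nearest had means on arrays 3 to 6 of 0.33 (model 138117, 2 places before) and -0.19 (model 149697, 1 place after), and model 138180, 4 places before, had -0.28. Model 191865, 4 places after *FMG1-B*, had -2.95 on arrays 3 to 6 but -0.72 on the second dye-test array, where *FMG1-B* had -3.02.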

How the data were processed

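The authors deposited Agilent Feature Extraction 10.7.3.1 output for 8 2-colour arrays. Per the file headers it holds each spot's processed intensity in Cy3 and Cy5 (background-subtracted, detrended and dye-normalized, with a substitute where a signal did not exceed background), uncorrected intensity, log10 ratio of Cy5 over Cy3, its error (called the measurement error here) and marks. The deposited value table equals these log10 ratios for all 45218 spots of each array (tolerance 1e-06). Its log10 values were used on the log2 scale as an alternative. No column of values was left without a sample (0 unmapped). No read depth applies to arrays, and the number of arrays limits the precision.

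Log2 ratios of processed intensities were normalized within each array by lowess (limma 3.58.1, R 4.3.3), which the study's methods name, with control and marked spots left out. The dye test was used without lowess. limma tested the mean against 0 for each probe that stood well above background, in either channel, on 4 or more of the 6 replication arrays, on the 6 arrays with Holm adjustment and on arrays 3 to 6 with Benjamini-Hochberg adjustment. A call needed an adjusted p under 0.05 and at least a 2-fold difference. Each array pairs both RNA samples. The study states biological and technical replicates without saying which arrays are which, so p-values may be too small.

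The members, lists and arrays 3 to 6 were chosen with earlier results of these data known. Named were all probes of *FMG1-B* and *FMG1-A*, up to 10 flagellar models with at least 2 probes called in 1 direction (by size of mean over tested probes), and the 5 models most like *FMG1-B*. Lists of intraflagellar transport, dynein, radial spoke, tubulin and BBSome genes had been planned by symbol, but the annotation used pairs 0 symbols with the identifiers, and these lists were not analysed here. Of the 14557 models 12302 (84.5%) matched a locus in it. Probe sequences of *FMG1-B* were not used here. The fits were tested on simulated data. Figures were drawn with matplotlib 3.10.9.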

Additional observations from a re-analysis of the deposited data

How the results depend on the processing

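For all 3 *FMG1-B* probes every alternative run kept a negative mean. On arrays 3 to 6 (alternatives on these arrays were chosen after seeing the data), normexp background correction gave -2.69, -2.80 and -2.68 for probes 1, 2 and 3 and median centring without lowess gave -2.69, -3.03 and -2.98. No background correction gave -2.68 for probe 1 and -2.71 for probe 3. Subtracting the first dye-test array gave -2.38 for probe 1 and -2.74 for probe 2, and could not be done for probe 3, whose spot was marked. Leaving out single arrays gave -2.58 to -2.53, -2.93 to -2.87 and -2.87 to -2.83 for probes 1, 2 and 3. Over 6 arrays probe 3 had -1.83 with normexp and -1.87 with no background correction, and leaving out single arrays gave -2.15 to -1.66, -2.64 to -2.29 and -2.74 to -2.57. On the second dye-test array normexp gave -2.26, -1.64 and -1.87. Of the flagellar probes, 1 in place of 0 was called over 6 arrays with Benjamini-Hochberg adjustment (0.424% of all tested probes) or without array 2 (0.0538%). Leaving out single arrays gave 0 to 1 (0.00598% to 0.0538% of all). The 6-array Holm call of *FMG1-B* probe 3 was lost with normexp and without array 4, 5 or 6. On arrays 3 to 6 the 18 calls (9.16% of all tested probes were called) became 4 with Holm adjustment (1.51% of all) and 6 with normexp (3.37%). They became 29 with median centring (25 lower, 4 higher, 11.8% of all) and 18 to 20 when single arrays were left out (8.73% to 9.47% of all). Median centring placed the median of all tested probes at -0.20 on arrays 3 to 6 and called 1395 lower and 584 higher of all tested probes, against 756 lower and 776 higher with lowess. The cause of these changes was not tested. The log2 ratio of each array is itself the paired value of both RNA samples, and slide as a random block left 18 calls (8.7% of all). Beyond that ratio, no paired analysis was possible because the replicate numbers shared by the replication and dye-test arrays join no samples that were compared. Arrays 1 and 2 limit the 6-array values, since probes 2 and 3 were not well above background there.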
